A study of Homo sapiens with 12 samples.

Results

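Aminoacyl-tRNA synthetases are the enzymes that join each amino acid to its transfer RNA, the step that supplies every ribosome. Human cells keep 2 sets, one for the cytosol and one for mitochondria, and most of the mitochondrial enzymes have a nuclear gene of their own (written with a final 2, as in RARS2). Several cytosolic enzymes sit in the multisynthetase complex on scaffold proteins, and the transcription factor ATF4 raises many cytosolic synthetase genes when amino acids run short. The mRNAs of 35 synthetase genes, 19 cytosolic and 16 mitochondrial, were followed here in Jurkat, a line of human T-cell leukaemia. The genes were taken from a list of the family, and each was read by its brightest probe set among those that name it alone. Under this rule 32 genes had a value, 17 cytosolic and 15 mitochondrial, of 19775 named genes on the array. All 32 were among the 12824 genes tested. MARS1, QARS1 and TARS2 were not analysed here, because each of their probe sets also names a second gene.

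Cells had been transduced with a miR-21 construct or with a control vector, and RNA came from an immunoprecipitation (IP) of AGO2, from an IP with control IgG, or from the whole extract (Total RNA). AGO2 is the Argonaute protein that carries microRNAs and the mRNAs they bind. The 6 groups were miR-21 AGO2 IP, control vector AGO2 IP, miR-21 IgG IP, control vector IgG IP, miR-21 Total RNA and control vector Total RNA, with 2 replicates each and so 12 Affymetrix arrays. All cells were grown in RPMI medium with 10% serum and RNA was extracted with proteinase K, then phenol-chloroform. The labelling reaction started from 1 ug of Total RNA but from 100 ng of IP RNA, so the amount labelled and the IP cannot be told apart. Nothing in the labels says whether the replicates were separate cultures, so the p-values measure the spread between these arrays, which may be technical. The study asked which mRNAs join AGO2 when miR-21 is supplied. The mature miR-21 strand, from chromosome 17, is printed with its seed, bases 2 to 8, in capitals because those bases direct target choice.
hsa-miR-21-5p: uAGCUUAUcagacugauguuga

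Promoters of 30 synthetase genes were available as 300-base windows around the gene's start (RefSeq, GRCh38.p14). The core of the amino acid response element, the site read by ATF4 and its partners, is spelled TGATGNAA and was searched on both strands. It was found in 6 of 16 cytosolic windows (37.5%) and in 1 of 14 mitochondrial windows (7.14%), against 1.71% of the 10356 windows of tested genes. All 6 cytosolic matches read TTGCATCA on the strand printed, a spelling looked for after the matches were seen and held by 0.502% of the 10356 windows. Of these, 5 cytosolic stretches and the mitochondrial one are shown because they share the core, with the element in capitals within 32 bases.
MARS1, chr12:57488052-57488083, plus strand: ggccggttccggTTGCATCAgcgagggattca
AARS1, chr16:70289674-70289705, minus strand: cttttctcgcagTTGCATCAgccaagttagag
CARS1, chr11:3057406-3057437, minus strand: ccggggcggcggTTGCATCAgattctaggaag
NARS1, chr18:57621803-57621834, plus strand: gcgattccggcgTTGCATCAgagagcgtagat
TARS1, chr5:33440955-33440986, plus strand: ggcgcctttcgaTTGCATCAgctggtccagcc
YARS2, chr12:32756075-32756106, plus strand: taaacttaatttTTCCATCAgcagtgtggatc

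Of the other motifs searched, the ETS core CCGGAAG lay in 50.0% of cytosolic and 42.9% of mitochondrial windows, against 18.6% of windows of tested genes. The HARS1 and HARS2 windows overlap and hold the same ETS cores, so that shared stretch counts once in each class. For the YY1 core AAGATGGC the shares were 18.8% and 21.4%, against 5.25%, and for the short NRF1 motif TGCGCA 25.0% and 28.6%, against 13.2%. The E-box CACGTG was in 1 of 16 cytosolic (6.25%) and 3 of 14 mitochondrial windows (21.4%), against 10.2%, and the longer NRF1 palindrome in 0 of 16 and, in MARS2, 1 of 14 (7.14%), against 2.37%. Windows for AARS2, VARS1, LARS1, YARS1 and VARS2 were not matched. These are matches of letters and do not show that a factor was bound.

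The 12 arrays fell into 2 sets by replicate number before any group difference was considered. The mean over all probe sets was 4.39 to 4.41 (log2) in replicate 1 and 5.26 to 5.27 in replicate 2, and same-numbered arrays deviated from their group means together (r across genes 0.468 to 0.873 over 15 pairs of groups). A fit with replicate as a block is therefore given beside the fit without it, which called no gene in any comparison. T cell identity was checked with 15 markers: 14 had a value and all 14 passed the filter, with means of 4.77 to 12.2. Of 11 measured markers of other cells 5 passed the filter: CD79A (6.56), 1 of 3 B cell markers, CSF1R (4.53), 1 of 3 monocyte markers, HBB (5.44), the only erythroid marker with a value, and KRT18 (5.95) and KRT8 (4.76), 2 of 4 epithelial markers. The other 6, among them MS4A1, CD14, LYZ, EPCAM and CDH1, had means of 2.67 to 3.92. Their part in the results was not tested. In replicate 2 the AGO2 IP and the IgG IP of one construct were closer than the 2 IPs with one antibody: the control vector AGO2 and IgG arrays correlated at 0.997 and the miR-21 AGO2 and IgG arrays at 0.992 across 12824 genes, against 0.964 for the 2 IgG arrays. Of these, the control vector AGO2 array and the miR-21 IgG array of replicate 2 were left out together in one alternative, chosen with this likeness known, and values without them follow beside the results. Whether labels of the IP arrays of replicate 2 were exchanged was not tested, and every comparison of antibodies or constructs in that replicate takes them as given.

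Arginyl-tRNA synthetase mRNAs stood out in the AGO2 IPs. RARS1, the cytosolic arginine enzyme, was 5.49-fold higher in AGO2 IPs than in Total RNA (log2 difference 2.46 ± 0.45, SE, 4 arrays against 4), and RARS2, its mitochondrial counterpart, was 3.49-fold higher (1.80 ± 0.36). Both passed the test with replicate as a block, and in that fit 7 further synthetase mRNAs were lower in AGO2 IPs: VARS1, EPRS1, FARSA, IARS1 and KARS1 of the cytosolic set and FARS2 and VARS2 of the mitochondrial set. In all, 9 of 32 synthetase genes (28.1%) passed the test, an adjusted p under 0.05 over all 12824 genes, against 16.0% of all genes tested. By direction, 2 of 32 were higher against 4.71% of genes, and 7 were lower against 11.3%. Without the block 0 of 32 passed, of 0% of all genes, and 6 synthetases had an unadjusted p under 0.05, as had 1230 of the 12824 genes.

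The calls depended on single arrays. With the block, no synthetase passed once either miR-21 AGO2 array or, in replicate 2, either Total RNA array was left out, and the adjusted p of RARS1 was then 0.0727 to 0.0765. The count was 4 when the miR-21 array of Total RNA in replicate 1 was left out, and 13 when the control vector AGO2 array of replicate 2 was. Cyclic loess normalization with the block left 6. The share of all genes called in these alternatives is not given here. Their counts therefore do not show whether synthetases changed apart from other genes. Leaving out both arrays named above, with the block, gave 11 calls of 32, against 21.9% of all genes.

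RNA quality differed between the same arrays. The 3' minus 5' log2 difference of the ACTB probe sets, larger where RNA is shorter, was 1.97 and 2.08 in miR-21 AGO2 IPs and 4.0 and 2.58 in control vector AGO2 IPs. It was 2.08 and 3.48 in miR-21 IgG IPs, 2.18 and 2.57 in control vector IgG IPs, 1.35 and 3.18 in miR-21 Total RNA and 1.38 and 3.53 in control vector Total RNA. The same quantity for GAPDH was 0.35 and 1.02 in miR-21 AGO2 IPs, 1.95 and 1.05 in control vector AGO2 IPs, 0.44 and 1.60 in miR-21 IgG IPs, 0.46 and 1.14 in control vector IgG IPs, 0.14 and 0.58 in miR-21 Total RNA and 0.22 and 0.71 in control vector Total RNA. In replicate 2 the Total RNA arrays were thus below all IPs by GAPDH, but not by ACTB. The part of RNA quality in the synthetase differences was not tested. In bulk RNA of this kind, fewer cells with an mRNA and less of it per cell cannot be told apart.

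**Figure D1:**
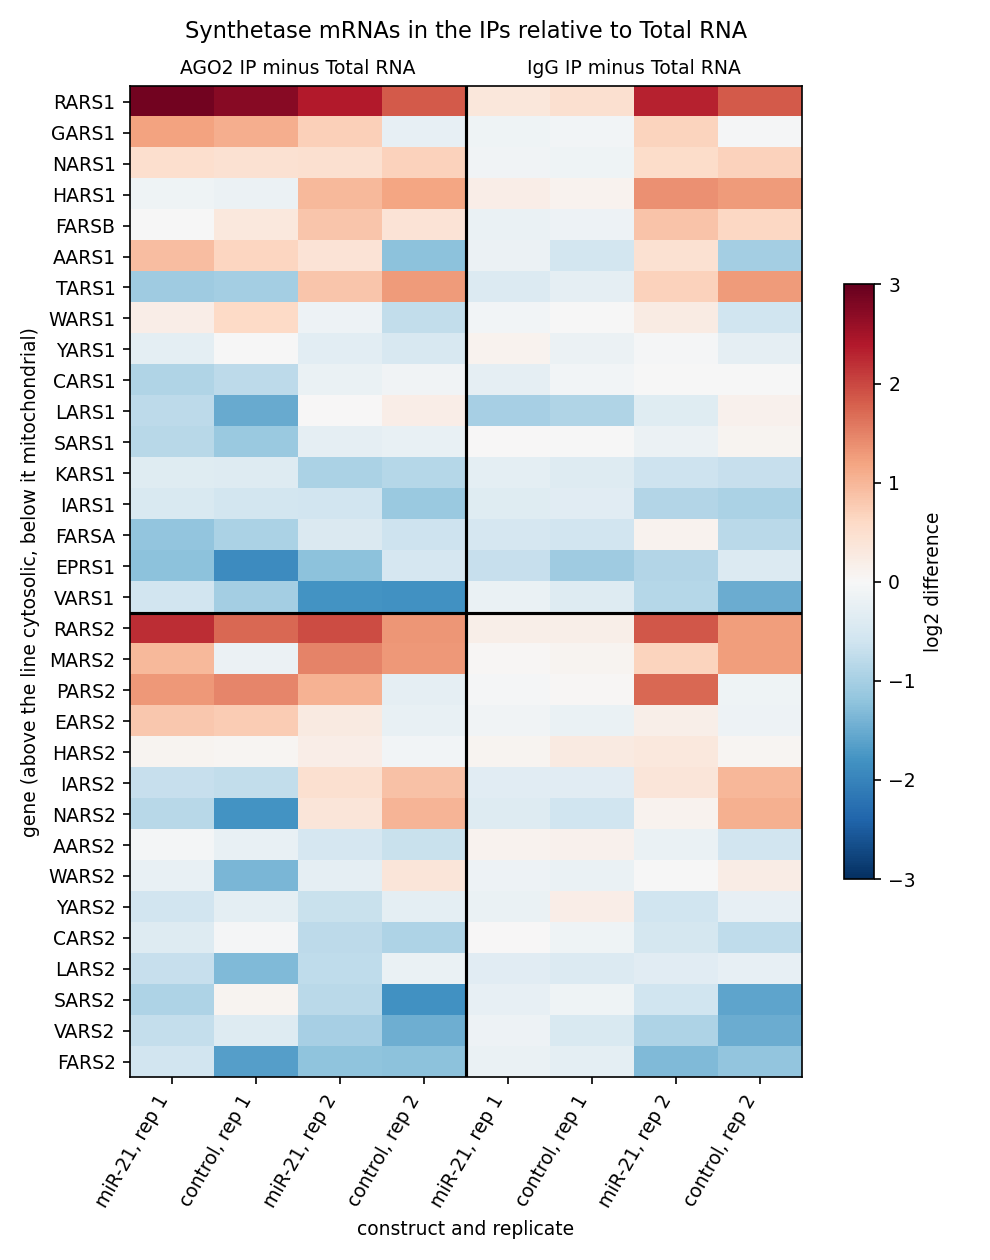
Log2 difference from Total RNA of the same construct and replicate for 32 synthetase genes (rows; cytosolic above the line, mitochondrial below it), in the AGO2 IPs (left) and the IgG IPs (right). RARS1 and RARS2 are higher in all 4 AGO2 IP columns, and in the IgG IPs their rise sits in replicate 2.

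Array values for the called genes are on the authors' log2 scale and run in the order replicate 1, replicate 2. The share of all genes whose AGO2 IPs and Total RNA do not overlap was not counted. Statements of this kind below describe the values only. RARS1 read 12.09 and 12.25 in miR-21 AGO2 IPs and 12.03 and 11.60 in control vector AGO2 IPs. It read 9.54 and 12.19 in miR-21 IgG IPs, 9.79 and 11.61 in control vector IgG IPs, 9.20 and 9.88 in miR-21 Total RNA and 9.30 and 9.76 in control vector Total RNA. All 4 AGO2 IPs lay above all 4 Total RNA arrays, and the IgG IPs were near Total RNA in replicate 1 and near the AGO2 IPs in replicate 2. The difference from Total RNA was 2.81 within replicate 1 and 2.10 within replicate 2, and with the block the adjusted p was 0.016. RARS1 ranked 83 of 12824 genes by its rise.

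RARS2 had the same split between replicates in the IgG IPs. It read 10.04 and 11.00 in miR-21 AGO2 IPs, 9.64 and 10.16 in control vector AGO2 IPs, 8.01 and 10.89 in miR-21 IgG IPs and 8.10 and 10.11 in control vector IgG IPs. In Total RNA it read 7.83 and 9.03 with miR-21 and 7.92 and 8.85 with the control vector. All 4 AGO2 IPs lay above all 4 Total RNA arrays, by 1.97 in replicate 1 and 1.64 in replicate 2 (adjusted p with the block 0.019). A second RARS2 probe set gave 1.84, and averaging all 6 probe sets of the gene, some of them below the filter, gave 0.77. The windows of the arginine genes are printed below because they carry the 2 rises, RARS1 with its ETS core and RARS2 with its short NRF1 motif in capitals.
RARS1, chr5:168486221-168486520, plus strand: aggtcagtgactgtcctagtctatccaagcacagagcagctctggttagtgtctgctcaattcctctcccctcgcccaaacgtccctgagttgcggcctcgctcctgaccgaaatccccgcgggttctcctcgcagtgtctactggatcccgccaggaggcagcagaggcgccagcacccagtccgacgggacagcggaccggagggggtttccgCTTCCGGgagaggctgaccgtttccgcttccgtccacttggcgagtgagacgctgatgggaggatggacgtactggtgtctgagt
RARS2, chr6:87589938-87590237, minus strand: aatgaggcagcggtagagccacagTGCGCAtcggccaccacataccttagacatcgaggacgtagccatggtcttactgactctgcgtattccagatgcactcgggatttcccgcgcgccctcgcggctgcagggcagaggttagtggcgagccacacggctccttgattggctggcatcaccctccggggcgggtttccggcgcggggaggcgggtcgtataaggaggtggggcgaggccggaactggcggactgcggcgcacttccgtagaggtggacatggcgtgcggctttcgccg

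Valine was the other amino acid with 1 gene per compartment for which both genes passed, and both were lower in the AGO2 IPs. For phenylalanine, described next, FARSA and FARS2 passed but FARSB did not. VARS1, the cytosolic enzyme, read 6.72 and 5.16 in miR-21 AGO2 IPs and 6.52 and 5.25 in control vector AGO2 IPs, against 7.30 and 6.95 in miR-21 Total RNA and 7.55 and 7.06 in control vector Total RNA. Its IgG IPs read 7.10 and 6.09 with miR-21 and 7.16 and 5.58 with the control vector. The 4 AGO2 IPs lay below the 4 Total RNA arrays (log2 difference -1.30 ± 0.25, adjusted p 0.018 with the block). The second VARS1 probe set gave 0.11, so this fall was read by a single probe set, and with the mean of both it was not called (-0.60, adjusted p 0.053). VARS2, the mitochondrial enzyme, read 7.24 and 7.96 in miR-21 AGO2 IPs and 7.60 and 7.51 in control vector AGO2 IPs, against 7.96 and 8.95 in miR-21 Total RNA and 7.98 and 8.97 in control vector Total RNA. In IgG IPs VARS2 read 7.79 and 8.04 with miR-21 and 7.52 and 7.48 with the control vector. Within each replicate its AGO2 IPs were below Total RNA. The difference was -0.89 ± 0.25 (adjusted p 0.041 with the block), with -0.55 in replicate 1 and -1.22 in replicate 2. It ran from -1.05 to -0.72 in the fits with the block that left out 1 array, and most of these did not call it. VARS2 was also not called with cyclic loess, with an intensity trend or without the 2 doubted arrays.

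Phenylalanine is charged by a cytosolic enzyme with subunits of its own genes and by a single-chain mitochondrial enzyme. FARSA, the alpha subunit of the cytosolic enzyme, read 8.0 and 8.21 in miR-21 AGO2 IPs and 8.0 and 8.32 in control vector AGO2 IPs, against 9.18 and 8.65 in miR-21 Total RNA and 8.94 and 8.93 in control vector Total RNA. Its IgG IPs read 8.67 and 8.75 with miR-21 and 8.35 and 8.11 with the control vector. AGO2 IPs and Total RNA did not overlap (difference -0.79 ± 0.20, adjusted p 0.031 with the block), and a second FARSA probe set gave -0.83. The FARSA difference ran from -0.95 to -0.64 in the fits with the block that left out 1 array, and most of these did not call it. FARSB, the beta subunit of the same enzyme, had a difference of 0.38 ± 0.24 (adjusted p 0.321), so it did not pass, and the gap between the subunits was not tested. FARS2, the mitochondrial enzyme, read 7.04 and 7.13 in miR-21 AGO2 IPs and 6.05 and 7.10 in control vector AGO2 IPs, against 7.61 and 8.35 in miR-21 Total RNA and 7.71 and 8.34 in control vector Total RNA. Its IgG IPs read 7.40 and 7.03 with miR-21 and 7.42 and 7.16 with the control vector. Every AGO2 IP was below every Total RNA array (-1.17 ± 0.27, adjusted p 0.025 with the block). The FARS2 call ended with the mean of its probe sets (-0.59, adjusted p 0.053) and with cyclic loess (adjusted p 0.051).

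EPRS1, IARS1 and KARS1, which like RARS1 belong to the multisynthetase complex, were lower in the AGO2 IPs. EPRS1, the fused glutamyl- and prolyl-tRNA synthetase, read 8.57 and 10.29 in miR-21 AGO2 IPs and 8.01 and 10.93 in control vector AGO2 IPs, against 9.80 and 11.52 in miR-21 Total RNA and 9.90 and 11.45 in control vector Total RNA. In IgG IPs EPRS1 read 9.11 and 10.63 with miR-21 and 8.83 and 11.05 with the control vector. Within each replicate its AGO2 IPs were below Total RNA (-1.22 ± 0.26, adjusted p 0.021 with the block), and its 2 further probe sets gave -1.17 and -0.40. IARS1, the isoleucine enzyme, read 10.85 and 11.82 in miR-21 AGO2 IPs and 10.69 and 11.26 in control vector AGO2 IPs, against 11.30 and 12.40 in miR-21 Total RNA and 11.23 and 12.37 in control vector Total RNA. AGO2 IPs and Total RNA overlapped across replicates but not within one. Its IgG IPs read 10.94 and 11.53 with miR-21 and 10.88 and 11.41 with the control vector. KARS1, the lysine enzyme of both compartments, read 12.24 and 12.48 in miR-21 AGO2 IPs and 12.27 and 12.52 in control vector AGO2 IPs, against 12.61 and 13.43 in miR-21 Total RNA and 12.66 and 13.37 in control vector Total RNA. Every KARS1 value in AGO2 IPs was below every Total RNA value. In IgG IPs KARS1 read 12.31 and 12.80 with miR-21 and 12.26 and 12.68 with the control vector. IARS1 (-0.67 ± 0.19) and KARS1 (-0.64 ± 0.18) were the weakest of the calls, each with an adjusted p of 0.046, and neither passed in any fit that left out 1 array or without the 2 doubted arrays (adjusted p 0.089 for IARS1 and 0.091 for KARS1). Of the 7 enzymes of the complex 5 had a value, and 1 rose (RARS1) and 3 fell, while LARS1 was at -0.52 without passing. The scaffold AIMP1 was at 0.32 and did not pass.

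**Figure D2:**
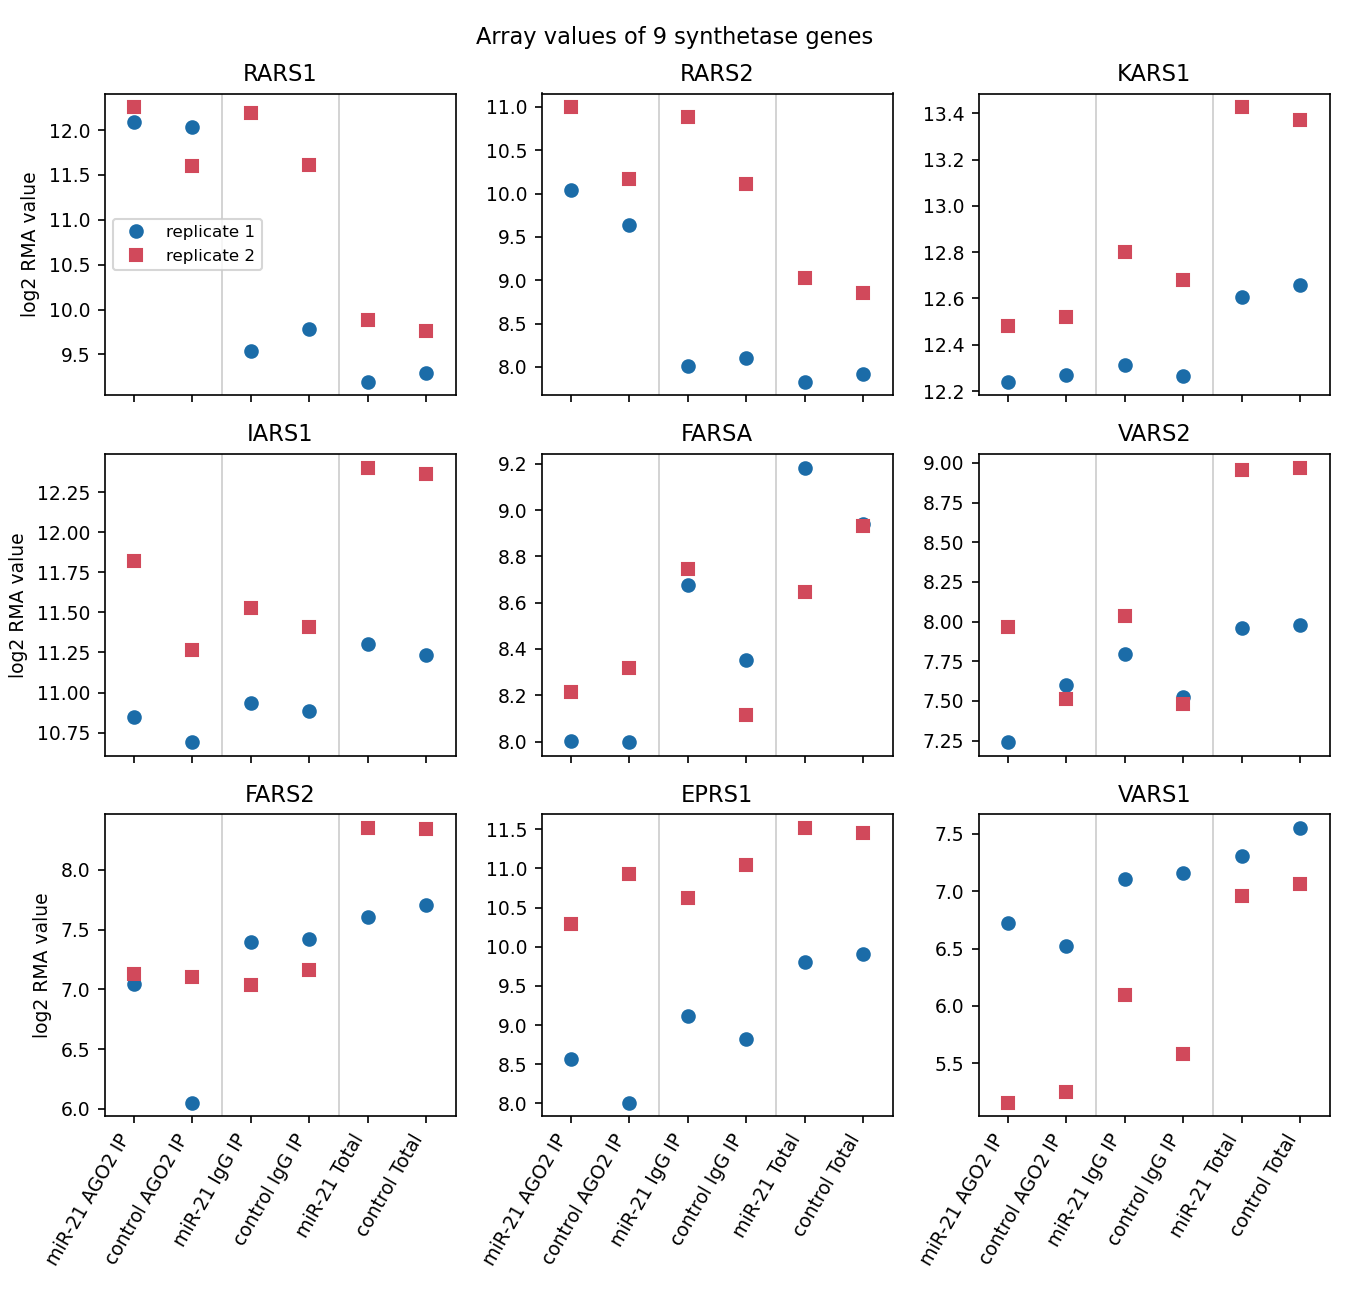
Log2 RMA value of the 9 called synthetase genes in each array (circles replicate 1, squares replicate 2), with AGO2 IPs left, IgG IPs in the middle and Total RNA right. Each panel has its own axis, and the 4 RARS1 values in AGO2 IPs run from 11.60 to 12.25, above the Total RNA values.

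The remaining 23 measured synthetases did not pass in AGO2 IPs against Total RNA. MARS2, the mitochondrial methionine enzyme, missed narrowly (0.90 ± 0.27, adjusted p 0.051). NARS1, the asparagine enzyme, was higher in all 4 pairs of one construct and replicate (0.45 to 0.70), and CARS1, SARS1, YARS1, AARS2, CARS2, LARS2 and YARS2 were lower in all 4. For the whole family 3 genes were higher in all 4 pairs and 14 lower, against 14.1% and 23.8% of all genes. Signs parted between replicates for some genes. TARS1 was at -1.05 within replicate 1 and 1.06 within replicate 2, and it passed within each. NARS2 was at -1.32 and 0.70 and IARS2 at -0.70 and 0.68, each passing within replicate 1. Within replicate 1 alone 17 synthetases passed (6 higher, 11 lower), against 36.3% of all genes, and within replicate 2 alone 13 (5 higher, 8 lower), against 35.2%.

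Among the other cytosolic enzymes the differences from Total RNA were 0.70 ± 0.31 for GARS1 (glycine), 0.46 ± 0.29 for HARS1 (histidine) and 0.19 ± 0.34 for AARS1 (alanine). WARS1 (tryptophan) and TARS1 (threonine) were near 0, at -0.02 and 0.01, and YARS1 (tyrosine) was at -0.28. CARS1 (cysteine) was at -0.50 ± 0.22, LARS1 (leucine) at -0.52 ± 0.30 and SARS1 (serine) at -0.61 ± 0.24. The dimmest further probe set of LARS1 gave the other sign, at 0.35, while its brighter ones gave -0.32 and -0.15. For SARS1 and WARS1 the further probe set also had the other sign, at 0.17 and 0.16. On the mitochondrial side PARS2 (proline) was at 0.89 ± 0.40 and EARS2 (glutamate) at 0.41 ± 0.25, and 2 of the 3 further EARS2 probe sets above the filter gave the other sign (-0.23 and -0.49). HARS2 was at 0.07 and IARS2 at -0.01, and AARS2, WARS2, YARS2 and CARS2 lay between -0.53 and -0.37. LARS2 (leucine) was at -0.74 ± 0.23 with an adjusted p of 0.060, and SARS2 (serine) at -0.87 ± 0.36. In all, 18 genes had more than 1 probe set, and of 24 further probe sets above the filter 6 had the other sign than the one used.

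Cytosolic and mitochondrial synthetases had similar medians between AGO2 IPs and Total RNA. The cytosolic set had 1 rise and 5 falls among 17 genes and a median log2 difference of -0.28. In the mitochondrial set 1 rose and 2 fell among 15 genes, with a median of -0.37. The median of all genes tested was -0.05. By construct and replicate the cytosolic median ran between -0.39 and -0.16 and the mitochondrial median between -0.40 and -0.23. With each gene averaged over both constructs, replicate 2 alone had a cytosolic median of -0.25 and a mitochondrial one of 0.03. KARS1 and GARS1 serve both compartments and were counted as cytosolic. For 11 amino acids the 2 measured genes differ in name only by the final 1 or 2. Of these pairs 9 had the same sign in this comparison, and the differences of the 2 enzymes correlated across the pairs (r = 0.906). Without arginine r was 0.637 over 10 pairs. For AGO2 minus IgG IPs 7 of the 11 pairs had the same sign and r was 0.652, or -0.537 without arginine. All pairs come from the same arrays, so this is a description. Against Total RNA the exceptions among the 11 pairs were alanine and asparagine. NARS1 was at 0.53 against -0.31 for NARS2, and AARS1 at 0.19 against -0.37 for AARS2. Glutamate, proline and phenylalanine were left out of the pairs, as their genes are not named in this way. EPRS1 was at -1.22 against 0.41 for EARS2 and 0.89 for PARS2, the other sign in both. FARSA was at -0.79 and FARSB at 0.38, against -1.17 for FARS2.

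The gap between the class medians was wider in the IPs of replicate 2 than in its Total RNA, but differences per gene did not show this. In replicate 2 alone the median difference from Total RNA was -0.25 cytosolic and 0.03 mitochondrial in AGO2 IPs. For IgG IPs the 2 medians were -0.12 and 0.01. The median cytosolic value minus the median mitochondrial value was 2.78 and 2.55 in the AGO2 IPs of replicate 2 (miR-21, control vector) and 2.84 and 2.59 in the IgG IPs, against 2.0 and 2.14 in Total RNA of that replicate. In replicate 1 the same quantity was 2.10 and 2.13 in AGO2 IPs, 2.14 and 2.10 in IgG IPs and 2.20 and 2.20 in Total RNA. Probe sets of different genes cannot be compared in level, so only the change between arrays can be read. The direction turned when all probe sets of a gene were averaged: over both replicates the gap was then 1.61 to 1.79 in the 4 IP groups, against 2.21 and 2.28 in Total RNA. Class means in place of medians gave 2.28 to 2.34 in the IP groups, against 2.31 in both Total RNA groups. With 2 replicates that part in this way, no test was made.

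**Figure D3:**
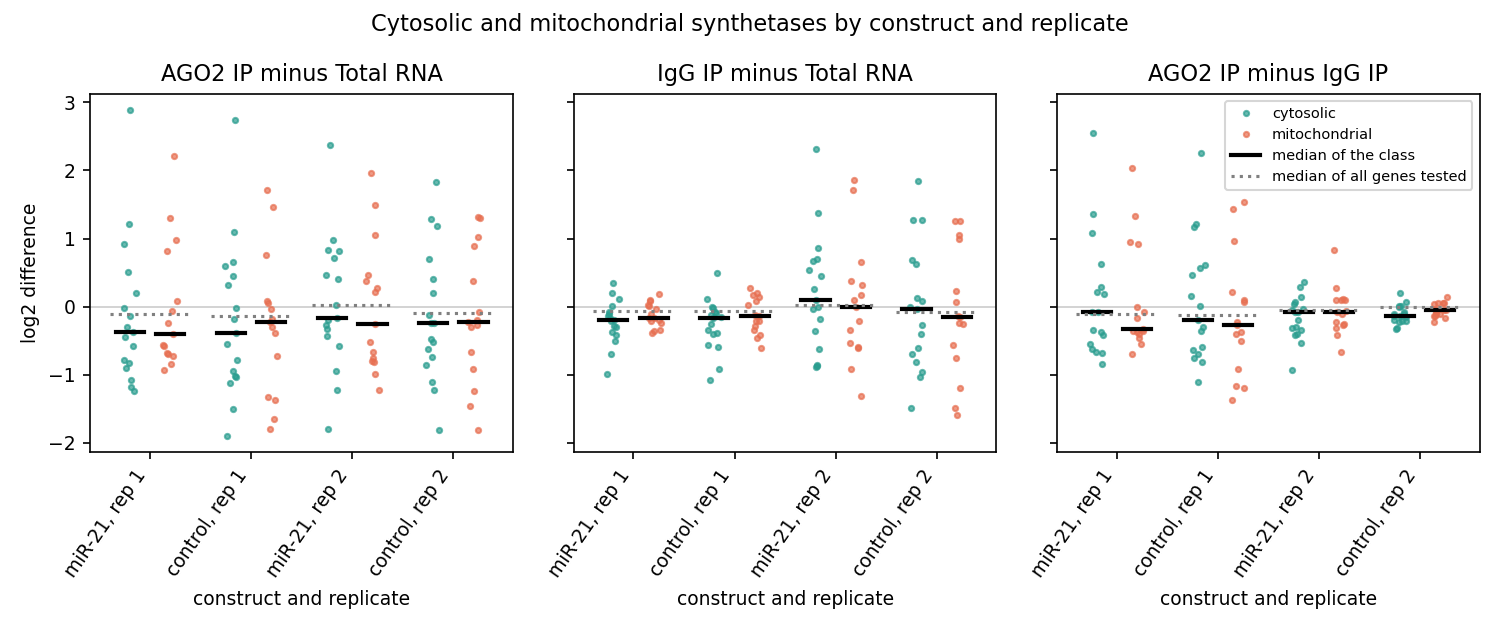
Log2 difference per gene for cytosolic (green) and mitochondrial (orange) synthetases in each construct and replicate, for AGO2 IP minus Total RNA, IgG IP minus Total RNA and AGO2 IP minus IgG IP. Bars are class medians and dotted lines medians of all 12824 genes; the medians of the classes lie within 0.5 of 0 throughout, and the AGO2 minus IgG points draw together in replicate 2.

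The IgG IPs give the same comparison without the AGO2 antibody, against the same Total RNA arrays. No synthetase passed in IgG IPs against Total RNA with the block, against 1.92% of all genes (0.296% higher, 1.62% lower), or without it, and 10 of 32 had an unadjusted p under 0.05 with the block, as had 2524 of the 12824 genes. The replicates parted here too: 0 synthetases passed within replicate 1 (3.77% of all genes) and 13 within replicate 2 (31.3% of all genes). RARS1 was at 0.42 in replicate 1 and 2.08 in replicate 2, and RARS2 at 0.18 and 1.56. HARS1, the cytosolic histidine enzyme, was at 0.16 and 1.32. It read 8.72 and 10.54 in miR-21 AGO2 IPs, 8.58 and 10.91 in control vector AGO2 IPs, 9.05 and 10.94 in miR-21 IgG IPs and 8.87 and 10.98 in control vector IgG IPs, against 8.85 and 9.56 in miR-21 Total RNA and 8.76 and 9.72 in control vector Total RNA. HARS2, its mitochondrial counterpart, differed by less, 0.18 over both replicates. The 2 histidine genes lie head to head on chromosome 5 with start sites 85 bases apart, and their windows share 184 bases. The HARS1 window is printed because 184 of its 300 bases are also in the HARS2 window. In capitals are both ETS cores, which lie in the HARS2 window too, and a short NRF1 motif, which does not.
HARS1, chr5:140691321-140691620, minus strand: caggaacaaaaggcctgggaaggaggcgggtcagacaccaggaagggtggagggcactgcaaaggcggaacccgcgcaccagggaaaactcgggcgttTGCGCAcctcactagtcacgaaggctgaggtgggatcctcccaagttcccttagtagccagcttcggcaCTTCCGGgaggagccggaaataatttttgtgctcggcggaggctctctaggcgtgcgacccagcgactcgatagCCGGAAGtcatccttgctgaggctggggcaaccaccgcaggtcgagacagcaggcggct

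Against the IgG IPs directly, the AGO2 IPs showed no synthetase that passed over both replicates. With the block 0 of 32 were called, of 0% of all genes, and 3 synthetases (of 663 genes) had an unadjusted p under 0.05; without the block 0 were called and none of the 32 reached it (29 genes in all). RARS1 was 1.21 ± 0.45 and RARS2 0.93 ± 0.36 higher, each with an adjusted p of 0.819. RARS2 was higher in all 4 pairs, by 2.03 and 1.54 in replicate 1 and by 0.11 and 0.05 in replicate 2 (miR-21, control vector). In replicate 1 alone 10 synthetases passed, against 24.0% of all genes. Higher in these AGO2 IPs were RARS1 (2.40), RARS2 (1.79), PARS2 (1.39, the mitochondrial proline enzyme), GARS1 (1.26, the glycine enzyme of both compartments), AARS1 (1.15, alanine), EARS2 (0.95, mitochondrial glutamate) and NARS1 (0.60). Lower were SARS1 (-0.97, serine), TARS1 (-0.71, threonine) and CARS1 (-0.65, cysteine). In replicate 2 alone 0 passed, of 0% of all genes, and the 32 differences lay between -0.63 and 0.44. The change between replicates was not tested.

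The 2 doubted arrays bear on this directly. Without them, and with the block, 6 synthetases passed in AGO2 IPs against IgG IPs, against 7.42% of all genes: RARS1 (1.99 ± 0.35, adjusted p 0.0202), RARS2 (1.52 ± 0.28, 0.0237), PARS2 (1.25, 0.0225), GARS1 (1.13, 0.0270), AARS1 (1.10, 0.0335) and SARS1 (-0.92, 0.0488). In that fit the arrays left in replicate 2 are the miR-21 AGO2 IP and the control vector IgG IP, so construct and antibody cannot be told apart there. Across the 32 synthetases the AGO2 minus IgG difference of replicate 1 correlated at 0.114 with that of replicate 2, but at 0.754 with the miR-21 minus control vector difference in the IPs of replicate 2, which shares no array with it. Over all 12824 genes the 2 values were -0.00172 and 0.667. In the IPs of replicate 2, AARS1 was 1.44 higher with miR-21, PARS2 1.21, GARS1 0.96 and RARS2 0.80. RARS1, EARS2 and WARS1 were 0.62, 0.62 and 0.63 higher there. SARS2, at 0.85, and VARS2, at 0.50, were higher with miR-21 too, but each was at -0.24 in AGO2 minus IgG IPs of replicate 1. Of the 7 genes called higher in the AGO2 IPs of replicate 1, all but NARS1 were also higher in the miR-21 IPs of replicate 2. These 7 were picked on a difference that correlated with the second at 0.667 over all genes, so the count adds no separate evidence. The share over all genes was not counted.

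**Figure D4:**
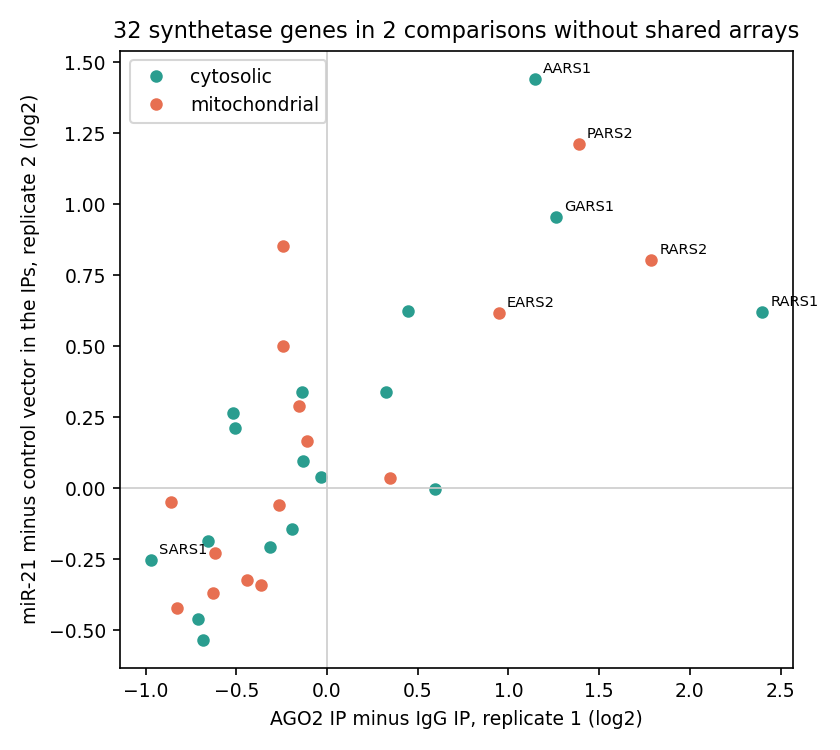
Each point is 1 of 32 synthetase genes: AGO2 IP minus IgG IP in replicate 1 (x axis, log2, mean of both constructs) against miR-21 minus control vector in the IPs of replicate 2 (y axis, log2, mean of both antibodies). RARS1, RARS2, PARS2, GARS1, AARS1 and EARS2 lie in the upper right, and the correlation over the 32 genes is 0.754.

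No synthetase mRNA passed for miR-21 against the control vector, in AGO2 IPs, in IgG IPs or in Total RNA, with the block or without it, and 0% of all genes did. None of the 32 had an unadjusted p under 0.05 in these comparisons in either fit. In Total RNA the 2 constructs were close, with differences between -0.37 and 0.39 in either replicate. In AGO2 IPs the differences reached further, from -1.17 (SARS2 in replicate 1) to 1.52 (AARS1 in replicate 2). No synthetase passed 0.5 in the same direction in both replicates, against 5.25% of all genes in AGO2 IPs, 1.82% in IgG IPs and 0.0312% in Total RNA. The sign was shared by both replicates for 13 of 32 in AGO2 IPs, 15 in IgG IPs and 15 in Total RNA. Sign agreement over all genes was not counted. The difference between constructs in the AGO2 or IgG effect, fitted as an interaction, called no synthetase and 0% of all genes in either fit.

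Genes that work beside the synthetases were counted in the same comparison, AGO2 IPs against Total RNA with the block, in which 4.71% of all genes were higher and 11.3% lower. Of 24 amino acid response genes 2 rose and 4 fell, with a median of -0.18. The rises were CHAC1, an ATF4-induced enzyme that breaks down glutathione (2.92 ± 0.83, adjusted p 0.044), and DDIT4, an inhibitor of mTORC1 signalling (1.18 ± 0.28). CHAC1 did not rise in every pair: in replicate 2 the control vector AGO2 IP, a doubted array, read 6.76 against 7.17 in Total RNA. With miR-21 in that replicate CHAC1 read 10.50 in the AGO2 IP, 10.45 in the IgG IP, the other doubted array, and 6.71 in Total RNA. In replicate 1 its AGO2 IPs read 10.37 (miR-21) and 9.56 (control vector), against 5.80 and 5.84 in Total RNA. The falls were SLC3A2, the heavy chain of amino acid exchangers (-1.30 ± 0.22), SHMT2, the mitochondrial serine hydroxymethyltransferase (-1.07), SLC7A1, a carrier of cationic amino acids (-0.96), and EIF2AK4, the kinase that senses uncharged tRNA (-0.78). ATF4 itself was at -0.61 and ASNS at -0.25, and neither passed. Of 15 mitochondrial translation partners 2 rose, the initiation factor MTIF3 (1.81 ± 0.44) and MTFMT, which formylates the initiator tRNA (0.75), and 1 fell, TUFM, the factor that brings charged tRNA to the ribosome (-1.06 ± 0.21). Their median was 0.08. Of 6 tRNA editing and recycling genes 0 passed, and of 14 T cell markers 2 fell, CD3E (-0.74) and CD5 (-0.73). None of these lists had a call without the block, and none in the IgG IPs against Total RNA or in AGO2 IPs against IgG IPs with or without it.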

How the data were processed

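The 12 arrays are Affymetrix HG-U133 Plus 2 arrays. The deposited values are on a log2 scale and were made by the authors with RMA, per the submitters' processing notes. Neither its version nor whether all arrays were normalized together is given in the sources used. Of 54675 probe sets 62 were controls, 41091 named a single gene and 1801 named several. Symbols of the platform annotation were updated through RefSeq (41042 matched). Each gene took, of its single-gene probe sets, the one highest on average. Genes with a mean of at least 4.02, the median over probe sets, were tested (12824).

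Group means of the 6 groups were fitted with limma 3.58.1 in R 4.3.3, without and with replicate as a block, and within each replicate (fraction plus construct). Adjusted p-values are Benjamini-Hochberg over 12824 genes, two-sided, and a gene was called under 0.05. The pairing comes from the replicate numbers in the labels and the check of deviations given with the results. The number of arrays limits the precision. Members and lists were chosen with earlier results of these data known. Per-array values are printed for members called in any of the comparisons of fractions or constructs in either fit, or with a difference of at least 1 from Total RNA, averaged over both replicates, and 1 sign in both. HARS1 values were added after they were seen, for the promoter it shares with HARS2. The procedure was tested on simulated data. Alternatives covered normalization, filter, probe set choice, variance trend and left-out arrays. One promoter sequence is not reported here.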

Additional observations from a re-analysis of the deposited data

How the results depend on the processing

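The count of synthetases called in AGO2 IPs against Total RNA was 0 without the replicate block under every alternative run on all 12 arrays. With the replicate block it was 9, also with median centring and with no filter, 8 with a filter at a mean of 6, with the mean of a gene's probe sets or with an intensity trend, and 6 with cyclic loess. Leaving out the 2 doubted arrays of replicate 2 with the block gave 11, and replicate 1 and replicate 2 alone gave 17 and 13. Leaving out 1 array with the block gave 0 to 13, with 7 without the replicate 1 array of control vector AGO2 IP or Total RNA, 4 without that of miR-21 Total RNA, and 6 without any 1 IgG array. For AGO2 IPs against IgG IPs the count was 10 within replicate 1 alone and 6 without the doubted arrays with the block. For IgG IPs against Total RNA it was 13 within replicate 2 alone. Shares of all genes called stand with the results for the block fit, each replicate alone and the fit without the doubted arrays. For the other alternatives they are not given here, so those counts do not show whether synthetases changed apart from other genes. The causes were not tested.

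The cytosolic minus mitochondrial median was 2.44 in miR-21 AGO2 IPs, 2.34 in control vector AGO2 IPs, 2.49 in miR-21 IgG IPs, 2.34 in control vector IgG IPs, 2.10 in miR-21 Total RNA and 2.17 in control vector Total RNA. With the mean of a gene's probe sets it was 1.71, 1.68, 1.79 and 1.61 in the IP groups, in that order, and 2.28 in control vector Total RNA. Means in place of medians gave 2.28 to 2.34 in the IP groups and 2.31 in both Total RNA groups. Leaving out GARS1 and KARS1 gave 2.13 to 2.40 in the IP groups, 1.79 in miR-21 Total RNA and 1.82 in control vector Total RNA.

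Reversals fell on AGO2 minus IgG differences, none of them called. FARS2 was 0.022 within replicate 2, IARS1 0.10 with cyclic loess and 0.075 within replicate 2, and KARS1 0.028 with cyclic loess. Leaving out 1 array without the block gave -1.18 to 0.28 for EPRS1, -0.27 to 0.21 for IARS1 and -0.31 to 0.050 for VARS2. EPRS1 stayed between -0.75 and -0.16 with the block. With the block IARS1 was 0.040 without the control vector AGO2 array of replicate 2, 0.056 with the control vector IgG array of replicate 1 left out, 0.034 with the miR-21 one left out, and 0.014 with the miR-21 AGO2 array of replicate 1 left out. VARS2 was 0.035 and 0.024 with the first and the second of these arrays left out.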
